A study of Sus scrofa with 2 samples.

Results

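The heat shock proteins and chaperones described here were 10 named genes, HSPB1, HSPB3, HSPB8, CRYAB, HSPA8, HSP90AA1, HSPA5, HSP90B1, HSPD1 and HSPE1, among the 22342 genes listed in both libraries. They were chosen by symbol, which found 9 of the 10. HSP90B1 was listed under its identifier, ENSSSCG00000000849, and was matched through a reference table of gene names of the same assembly. All 10 had at least 1 UMI in each follicle, and 9 of them reached the 200 UMIs in a group that were asked of a ratio. HSPB8 did not, with 3 UMIs in AF75 and 2 in AF76. The 10 genes were proposed with results of these data already known, so that their levels and pairs are given as a description.

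The somatic cells of a pair of antral follicles over 7 mm in diameter, AF75 (labelled follicle 1) and AF76 (labelled follicle 2), were measured by 10x Genomics 3′ UMI counting of single cells, each follicle as its own library. Both came from one 210-day-old pubertal Landrace × Yorkshire pig, which per the study's methods had received PMSG, a gonadotropin that drives follicle growth. Neither follicle was an untreated control, and the 2 differ in no labelled treatment. With 1 library per follicle there was no replicate follicle and no test, and every interval given is a 95% interval that covers counting error alone.

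Barcodes with 2000 to 5000 genes and under 7% mitochondrial UMIs were taken as cells, 9362 of 14289 in AF75 and 7843 of 15548 in AF76, with a median of 11254.5 and 13902 UMIs. Across the kept barcodes, 18 sequences were found in both libraries. Granulosa cell markers, with INHA the largest, summed to 23604 and 25412 CPM, the UMIs of a gene per 1000000 UMIs of its group, and 6 of 7 listed were in the gene list. AMH was at 0 in AF75. Markers of other cell types summed to much less: immune 10.4 and 12.6 CPM, endothelial 49.5 and 56.6 CPM with CDH5 at 0, and oocyte 4.95 and 5.17 CPM with 6 of 7 genes at 0. Theca or stromal markers summed to 310 and 504 CPM, and 8 smooth muscle genes to 408 and 449.5 CPM.

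Chaperones bind unfolded or newly made proteins and hold, fold or pass them on. The small heat shock proteins (HSPB1, HSPB3, HSPB8 and CRYAB) hold unfolding proteins without using ATP, while HSPA8 and HSP90AA1 are ATP-driven chaperones of the cytosol. HSPA5 (BiP) and HSP90B1 (GRP94) are their counterparts in the endoplasmic reticulum (ER), where secreted proteins such as the inhibins of granulosa cells are folded, and HSPD1 and HSPE1 form the folding chamber of the mitochondrial matrix. Transcription of the inducible cytosolic members is classically driven by heat shock factors, and that of the ER pair by the unfolded protein response.

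The upstream sequences of 4 members are shown because they hold the letters of those response elements. HSPA5 and HSP90B1, which share one of them, were also the pair with the highest r across cells, given further on. A link between the element and that r was not tested. The sequences were read from the RefSeq genome of Sscrofa11.1, 5′ to 3′ on the strand of the gene. They run from 240 bases before to 10 bases after the annotated start. HSPA5 lies on the minus strand and its window is chr1:265934950-265935199. HSP90B1 lies on the minus strand at chr5:80531007-80531256, HSPA8 on the minus strand at chr9:49986751-49987000, and HSPD1 on the minus strand at chr15:101373489-101373738. Capitals mark the ER stress element in HSPA5 and HSP90B1 and the heat shock element in HSPA8 and HSPD1.
HSPA5: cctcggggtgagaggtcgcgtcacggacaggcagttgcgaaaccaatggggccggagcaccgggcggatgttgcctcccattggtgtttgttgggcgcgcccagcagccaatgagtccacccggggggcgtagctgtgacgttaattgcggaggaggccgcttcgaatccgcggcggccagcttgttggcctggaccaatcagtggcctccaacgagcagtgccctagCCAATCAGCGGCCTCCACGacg
HSP90B1: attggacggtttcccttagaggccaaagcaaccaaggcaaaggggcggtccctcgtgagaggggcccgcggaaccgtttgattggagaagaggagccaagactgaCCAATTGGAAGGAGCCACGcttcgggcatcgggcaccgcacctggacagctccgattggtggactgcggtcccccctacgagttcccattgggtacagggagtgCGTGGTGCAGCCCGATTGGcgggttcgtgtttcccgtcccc
HSPA8: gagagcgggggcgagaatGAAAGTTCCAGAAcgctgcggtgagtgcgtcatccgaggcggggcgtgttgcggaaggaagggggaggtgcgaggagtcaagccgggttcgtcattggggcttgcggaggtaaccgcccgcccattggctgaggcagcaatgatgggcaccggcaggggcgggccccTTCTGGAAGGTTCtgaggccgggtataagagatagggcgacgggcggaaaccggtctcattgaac
HSPD1: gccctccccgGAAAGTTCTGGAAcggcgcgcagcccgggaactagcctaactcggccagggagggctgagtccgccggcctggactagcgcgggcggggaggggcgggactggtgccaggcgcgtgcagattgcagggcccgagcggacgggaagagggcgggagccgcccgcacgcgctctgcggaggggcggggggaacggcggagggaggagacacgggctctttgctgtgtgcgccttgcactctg

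3 spellings were searched on both strands of the 300 bases from 250 before to 50 after the start of 19281 protein-coding genes. The ER stress element, CCAAT and CCACG with any 9 bases between them, was found in 16 promoters, or 0.083%. HSPA5 held it once, from 12 bases before the start to 7 bases after it, and HSP90B1 held it at 2 places, in opposite orientations. Of the 16 genes, 7 were ER members or on the list of ER chaperones and unfolded protein response genes, which had 27 genes with a promoter window: HSPA5, HSP90B1, CALR, CANX, CRELD2, PDIA6 and XBP1. The heat shock element of 3 units, which is GAA, TTC and GAA with any 2 bases between each, was in 74 promoters (0.384%), and among the members it was in HSPA8, at 2 places, and in HSPD1. Its shorter form of 2 units (GAANNTTC or TTCNNGAA), which overlaps the longer one, was in 12.3% of promoters and in HSPB1, HSPA8 and HSPD1. None of these spellings was found in the windows of HSPB3, HSPB8, HSPE1 and CRYAB. The windows follow annotated starts, which were not checked, and a window at a wrong start would miss the promoter. This absence therefore does not show that these genes lack the elements. HSP90AA1 is annotated in part, on an unplaced scaffold, and was not searched. HSPD1 and HSPE1 lie head to head on chromosome 15, with 520 bases between their annotated starts. The heat shock element of HSPD1 lies in this shared stretch, outside the window searched for HSPE1.

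Together the 10 genes took 1.41% of all UMIs in AF75 and 1.54% in AF76, and HSPB1 and HSP90AA1 made up 67.1% and 64.4% of that. Each UMI stands for 1 tagged transcript end, so levels of different genes can be set beside each other without a correction for length. Whether reads were assigned equally well to each gene was not checked. Among the small heat shock proteins, HSPB1, which guards the actin cytoskeleton, had a level of 5841 CPM in AF75 cells and of 6198 CPM in AF76 cells. It ranked 11 among all listed genes in both follicles. HSPB3, a small member best known from muscle, had 809 CPM in the first follicle and 1305 CPM in the second. These 2 genes were thus both well expressed, while the other small members were not. CRYAB, the alpha-B crystallin of lens and muscle, was at 4.13 CPM (3.76 to 4.52) and 3.89 CPM (3.53 to 4.28). The 3 and 2 UMIs of HSPB8, a partner of the co-chaperone BAG3, were at or below the floor of 3 counts, 0.027 CPM in AF75.

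Of the cytosolic chaperones, HSP90AA1, the inducible HSP90, had 3635 CPM in AF75 cells and 3708 CPM in AF76 cells. HSPA8, the constitutive HSP70, was at 1445 CPM and 1390.2 CPM. The ER pair was close together in AF75, with 787 CPM of HSPA5 and 811 CPM of HSP90B1. In AF76 HSPA5 was the higher of the pair, at 1060.3 CPM against 798 CPM. In the mitochondrial pair HSPE1, the lid of the chamber, exceeded HSPD1, the barrel, in both follicles: 457 against 330.3 CPM in AF75 and 532 against 388 CPM in AF76. The order of the members was HSPB1, HSP90AA1, HSPA8, then HSP90B1, HSPB3 and HSPA5, then HSPE1, HSPD1, CRYAB and HSPB8 in AF75. In AF76 HSPB3 and HSPA5 moved above HSP90B1. The intervals of HSP90B1 and HSPB3 overlapped in AF75 (806 to 816 CPM and 804 to 814 CPM), so that these neighbours did not differ beyond counting error.

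**Figure D1:**
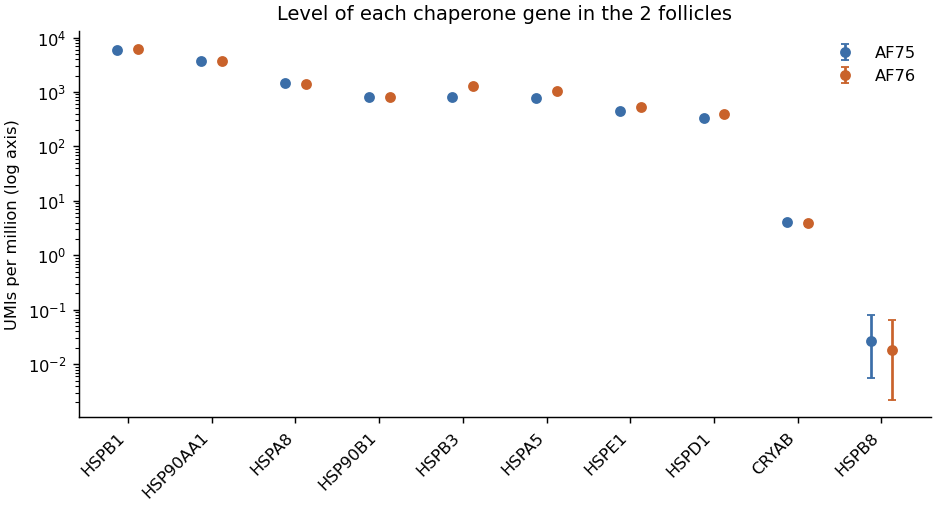
Level of each of the 10 genes in CPM (log axis) over the kept cells of AF75 (blue) and AF76 (orange), with exact Poisson 95% intervals, which are narrower than the points for most genes. HSPB1 stood highest in both follicles, at 5841 and 6198 CPM, CRYAB was near 4 CPM, and HSPB8 rested on 3 and 2 UMIs.

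HSPB1 was found in 100% of the AF75 cells, with a median of 61 UMIs and a 95th percentile of 145, and HSP90AA1, HSPA8, HSP90B1, HSPD1 and HSPE1 were likewise found in most cells (93.5% to 100%). HSPB3 was different. It was found in 76.9% of AF75 cells and 83.6% of AF76 cells, its median was 2 and 5 UMIs, and its highest cell held 169 and 432. The tenth of cells with the most HSPB3 held 52.5% of its UMIs in AF75 and 48.6% in AF76, against 22.8% and 23.7% for HSPB1. When cells were thinned to 5000 UMIs each, which kept 9343 cells of AF75 and 7738 of AF76, HSPB3 was found in 62.1% and 70.5%.

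The variation beyond counting error was measured as an excess coefficient of variation in the thinned cells. For HSPB3 it was 1.68 in AF75 and 1.51 in AF76, which ranked 29 of 1619 genes and 46 of 1642. HSPA5 followed with 0.947 and 0.928, and its highest cells held 166 and 296 UMIs beside medians of 7 and 11. The other 6 abundant members ranged from 0.317 to 0.565, against a median of all genes of 0.342 and 0.364. Free RNA sets a limit on reading the share for HSPB3. In barcodes with immune cell markers, which should lack the gene, 53.8% of 26 in AF76 had an HSPB3 UMI at a median depth of 4017.5 UMIs, and their level was 252 CPM. In AF75 there were 5 such barcodes, with 247 CPM, but 34 of their 37 UMIs of HSPB3 lay in a single barcode, so that no background level can be read there.

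**Figure D2:**
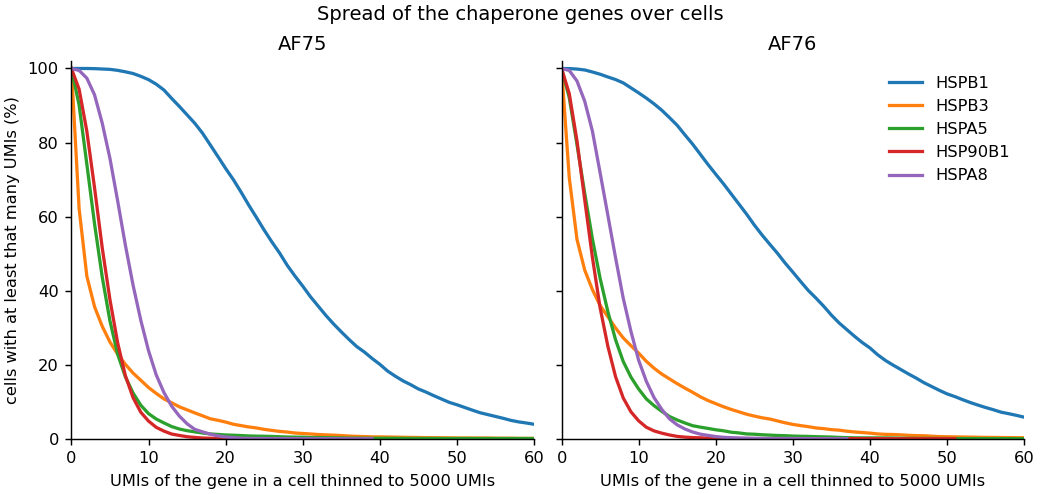
Share of cells (%) holding at least a given number of UMIs of a gene, after each cell was thinned to 5000 UMIs, in AF75 (left) and AF76 (right). The HSPB3 curve starts lowest, at 62.1% and 70.5% of cells with 1 UMI or more, and still holds 20 UMIs or more in 4.5% and 9.49% of cells, while that of HSPA8 falls steeply.

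CRYAB was rare and uneven. It was found in 313 cells of AF75 and 300 of AF76, of which 255 and 252 held a single UMI. The 6 cells of AF75 and 5 of AF76 with 5 or more UMIs held 17.9% and 17.7% of its UMIs, and the highest cell held 38 in each follicle. All of these 11 cells belonged to the largest cluster. The immune-marked barcodes held 0 UMIs of CRYAB, with exact intervals that reached 24.6 CPM in AF75 and 19.3 CPM in AF76, above its level in the kept cells.

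The follicles were compared as the ratio of CPM in AF76 to that in AF75 over all kept cells. HSPB3, at 809 and 1305 CPM, was 1.61-fold higher in AF76 (1.60 to 1.63), a larger change than that of 95.5% of genes. It was the 1 member of 9 past 1.5-fold, where 5.65% of 10049 genes were past it in either direction. HSPA5 was 1.35-fold higher (1.34 to 1.36), and the mitochondrial pair moved alike, with HSPD1 1.18-fold and HSPE1 1.16-fold higher. The abundant cytosolic members and the other ER chaperone barely differed: HSPB1 had a ratio of 1.06, HSP90AA1 1.02, HSP90B1 0.984 and HSPA8 0.962. The direction for HSP90AA1 was not the same under every alternative, with a log2 ratio from -0.02 to 0.05. The interval of CRYAB, 0.825 to 1.08, spanned 1. HSPA5 and HSP90B1, which varied together across cells, thus differed in their ratio between the follicles.

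Within clusters the difference in HSPB3 was uneven. The cells fell into 6 clusters, found without chaperone genes among the variable genes and named here by their leading gene. In the largest, the TGFB3-led cluster (6144 cells of AF75 and 5624 of AF76), HSPB3 stood at 1061 and 1467 CPM, a ratio of 1.38 (1.37 to 1.40). No member passed 1.5-fold there, where 1.87% of 9405 genes did. In the ARPP21-led cluster, which had the highest VCAN (2597 and 1258 cells), HSPB3 had 360.4 CPM in AF75 cells and 1092 CPM in AF76 cells, a ratio of 3.03 (2.96 to 3.1). There HSPB3 was the 1 member of 8 past 1.5-fold, beside 12.8% of 7853 genes.

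In the TOP2A-led cluster of cycling cells (454 and 121 cells) HSPB3 was at 235 and 704 CPM, 3.0-fold apart (2.80 to 3.21). HSPA5 was also past 1.5-fold there, at 526 and 817 CPM, beside 8.62% of genes. In the ALDH1A2-led cluster (167 and 159 cells) HSPB3 was at 255 and 420.5 CPM, 1.65-fold apart (1.48 to 1.84), beside 1.8% of genes. HSPB3 was therefore higher in AF76 in each of the 4 clusters that held cells of both follicles, and so was HSPA5, by 1.31-fold to 1.55-fold. The ratio of HSPA8 lay between 0.892 and 1.04 in these clusters.

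**Figure D3:**
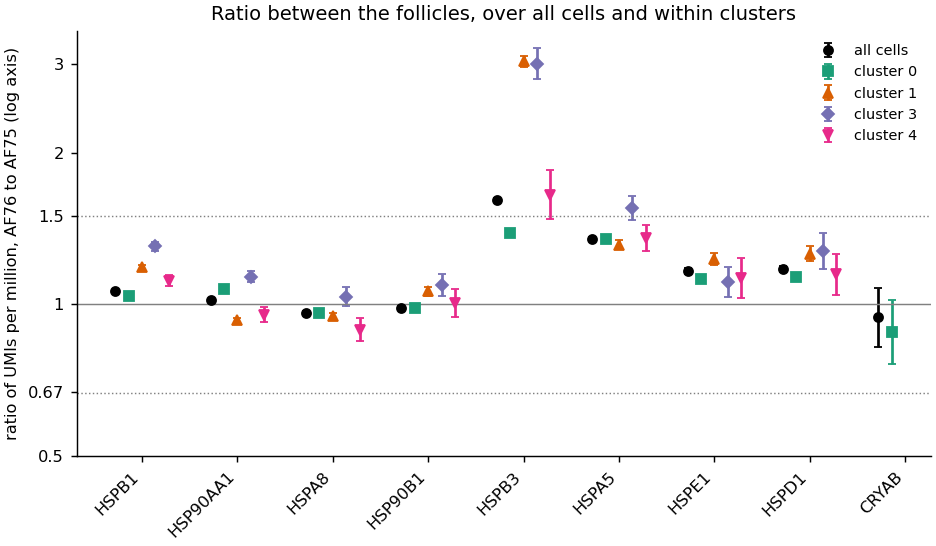
Ratio of CPM in AF76 to AF75 (log axis) for the 9 members with enough UMIs, over all cells and within the 4 clusters shared by the follicles, with exact 95% intervals. Dotted lines mark 1.5-fold. HSPB3 reached 3.03 in cluster 1 (ARPP21-led) and 3.0 in cluster 3 (TOP2A-led), against 1.38 in cluster 0 (TGFB3-led).

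The ARPP21-led cluster was not made up alike in the 2 follicles. At a finer resolution of 0.8 most of it fell into a TMEM178A-led group of 1352 cells in AF75 and 887 in AF76, and a PTGS2-led group of 899 cells in AF75 and 33 in AF76. HSPB3 in AF75 was at 120 CPM in the PTGS2-led group, 499.6 CPM in the TMEM178A-led group and 1262 CPM in the TGFB3-led group, the highest. VCAN, a marker of cumulus cells, ran the other way in these 3 groups, at 8499, 4266 and 409 CPM, and AREG, a marker of mural granulosa cells, ran with HSPB3, at 213, 1518 and 4345 CPM. Not every group followed this order. The ALDH1A2-led group of AF75 had less HSPB3 than the TMEM178A-led group, at 265 CPM, with less VCAN (1101 CPM) and more AREG (1936 CPM). In AF76 the TMEM178A-led group had 1218 CPM of HSPB3, 1038 CPM of VCAN and 4678 CPM of AREG, and the TGFB3-led group 1569, 176 and 7031 CPM. Over all cells of a follicle AREG was itself 1.92-fold higher in AF76 and VCAN had a ratio of 0.208, and the part of these shifts in the HSPB3 ratio was not tested.

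The clusters of each follicle were then set against its TGFB3-led cluster. In AF75 HSPB3 was 2.94-fold lower in the ARPP21-led cluster (2.88 to 3.0), where 18.1% of genes passed 1.5-fold in either direction. In AF76 its log2 ratio was -0.42, short of 1.5-fold, where 5.89% of genes passed. CRYAB was the 1 member past 1.5-fold in both follicles, lower in each. It was at 2.44 against 5.24 CPM in AF75 and 1.88 against 4.62 CPM in AF76. Its 71 and 35 UMIs in the ARPP21-led cluster were under the 200 asked of a ratio. It was tested through the 382 and 374 UMIs of the TGFB3-led cluster alone. The intervals of its ratio were 0.356 to 0.602 in AF75 and 0.279 to 0.576 in AF76. With clusters found without integration of the libraries, the VCAN-highest cluster held 108 AF76 cells in place of 1258. The log2 ratio of CRYAB in AF76 was -0.02 there, and HSPB3 was then the 1 member past 1.5-fold in both. The remaining tested members lay between log2 ratios of -0.51 and 0.06 in AF75 and between -0.38 and 0.06 in AF76. HSPA5, HSPA8, HSP90B1, HSPD1 and HSPE1 were lower in the ARPP21-led cluster in both follicles, none past 1.5-fold.

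In cycling cells HSPA5 had log2 ratios to the TGFB3-led cluster of -0.70 in AF75 and -0.50 in AF76, and its partner HSP90B1 of -0.02 and 0.13. HSPB3 had log2 ratios of -2.18 and -1.06, and CRYAB rested on 4 UMIs in each follicle. The share of genes past 1.5-fold was 20.7% in AF75 and 18.9% in AF76. In the ALDH1A2-led cluster, where 14.5% and 14.6% of genes passed, HSPB3 had log2 ratios of -2.06 and -1.8, while the log2 ratios of the ER pair, HSPB1 and HSPD1 lay between -0.09 and 0.15. CRYAB rested on 2 UMIs there in each follicle. HSPB3 was lower than in the TGFB3-led cluster in every other cluster of both follicles.

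A finer group led by RGN, NCCRP1 and TECR, part of the TGFB3-led cluster, had the highest level of CRYAB and of HSPB1 in both follicles among the 8 groups of 100 or more cells. CRYAB was at 10.1 CPM (7.02 to 14.2, from 34 UMIs in 288 cells) in AF75 and at 10.7 CPM (8.24 to 13.8, from 62 UMIs in 474 cells) in AF76. The other 7 groups had at most 6.03 and 4.76 CPM. HSPB1 was at 7369 and 8020.3 CPM in this group, against at most 6071 and 6684 CPM in the others.

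The CEMIP-led cluster, of 652 cells that were all from AF76, stood furthest from the rest. HSPB3 was at 103 CPM there against 1467 CPM in the TGFB3-led cluster of the same follicle, 14.2-fold lower (13 to 15.6). HSPA5 was at 188 against 1152 CPM, 6.12-fold lower (5.72 to 6.55). HSP90B1 was at 264 against 832 CPM, 3.15-fold lower, and HSPB1 at 2055 against 6352 CPM, 3.09-fold lower. These 4 members, from the ER and the small heat shock proteins, differed by the largest folds among the 9 tested.

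HSP90AA1 was 2.04-fold lower, HSPD1 1.63-fold and HSPA8 1.52-fold. HSPE1, at 555 and 548 CPM, did not differ beyond counting error, with a ratio of 1.01 (0.972 to 1.05). CRYAB was at 1.98 CPM from 9 UMIs, a ratio of 0.430 (0.195 to 0.825). It was tested through the 374 UMIs of the TGFB3-led cluster alone. In all, 8 of 9 members, CRYAB among them, were lower by over 1.5-fold, where 15.1% of 9349 genes were lower and 53.5% changed in either direction. The median gene was higher there by 0.36 on the log2 scale. Its HSPB3 level was under the 252 CPM of all 26 immune-marked barcodes of AF76, and within the interval of the 9 of them that were kept, 77.1 CPM (31.0 to 159), so that it cannot be told from free RNA.

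Other ER genes were also lower in the CEMIP-led cluster. Of 25 listed, 14 were lower by over 1.5-fold and 3 higher, where 15.1% of all genes were lower and 38.3% higher. SDF2L1, a partner of HSPA5, was at 8.16 against 112 CPM, MANF, a protective factor of the ER, at 184 against 1037 CPM, and CALR, a lectin chaperone, at 418 against 1213 CPM. The 3 higher were DDIT3 (CHOP), which drives death under ER stress, at 32.9 against 12.1 CPM, CREBRF at 49.6 against 16.4 CPM and HERPUD1 at 141 against 87.4 CPM. TRIB3, on the same list, was at 10.4 against 88.2 CPM. The listed genes thus differed in direction, with the higher ones a smaller share than among all genes.

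In the cytosol, HSP90AB1, the constitutive HSP90, was at 2209 against 1579 CPM, the opposite direction to HSP90AA1. Of the inducible genes, HSPH1 was at 129 against 135 CPM and DNAJB1 at 33.5 against 33.8 CPM. BAG3, a co-chaperone of HSPB8, was at 32.2 against 216 CPM, and FKBP5, a co-chaperone of HSP90 that glucocorticoids induce, at 432 against 110.4 CPM. Over all 86 tested chaperones that were not members, 25 were lower and 11 higher, where 15.1% of all genes were lower and 38.3% higher. No cytosolic chaperonin or prefoldin gene was higher by over 1.5-fold, and 1 of 11 was lower.

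Several other measures moved with this cluster, and their part in its chaperone levels was not tested. Its cells had a median of 6385 UMIs against 14205.5, and 13.8% of UMIs from ribosomal protein genes against 10.3%. Granulosa markers summed to 4941 against 26756 CPM, and immune markers to 78.7 against 10.6 CPM. The 8 smooth muscle genes summed to 656 against 437 CPM, and 16 immediate early genes, which cell handling can induce, to 1147 against 711 CPM. The smooth muscle sum hides larger changes both ways. Of 6 smooth muscle genes tested, 3 were higher by over 1.5-fold and 2 lower. MYH11 and ACTA2 were among the leading genes of the cluster, at 109 and 63.5 CPM against 0.770 and 0.543 CPM in the cells of all other clusters. With cells thinned to 5000 UMIs, 7 members were lower by over 1.5-fold, without CRYAB. Without mitochondrial and ribosomal protein genes in the library size 7 were, without HSPA8, and without the highest doublet scores 8 were. The cluster held 1 library, so that the follicle and the cell group cannot be told apart. A WNT6-led cluster of 29 AF76 cells had 3193 CPM of HSPB1, 60 CPM of HSPB3 and 576 CPM of HSPE1.

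**Figure D4:**
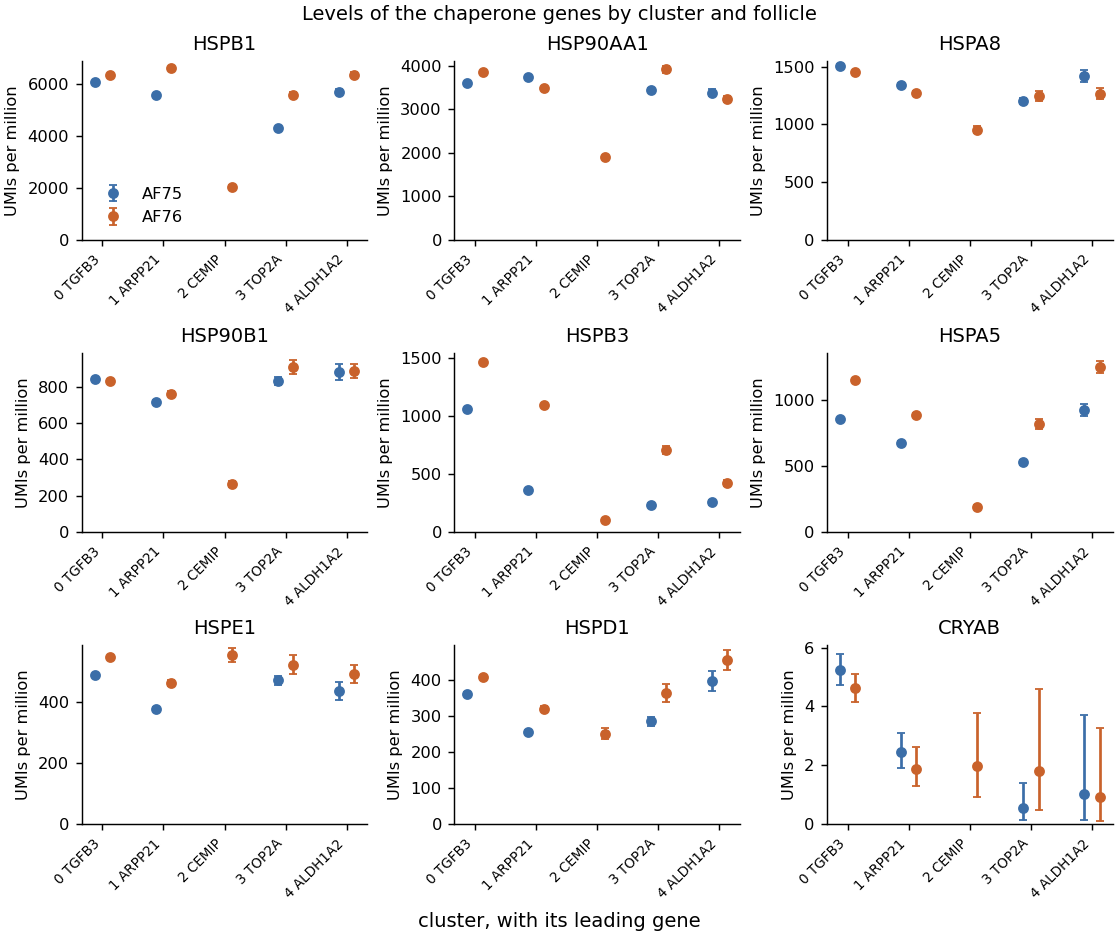
Level of 9 members in CPM (linear axes from 0) in 5 clusters, each named with its leading gene, in AF75 (blue) and AF76 (orange), with exact Poisson 95% intervals. In the CEMIP-led cluster HSPB3 was at 103, HSPA5 at 188 and HSPB1 at 2055 CPM, while HSPE1, at 555 CPM, was close to the 548 CPM of the TGFB3-led cluster.

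Co-expression across cells was described by Pearson's r of log-normalised values, over 9362 cells of AF75 and 7843 of AF76. Cells of a library share its depth and free RNA, and no p is given. Of 45 pairs, 2 had an r of 0.2 or more in both follicles. HSPA5 and HSP90B1, the ER pair, had an r of 0.49 in AF75 and 0.61 in AF76. HSPA8 and HSP90AA1, the cytosolic pair, had an r of 0.26 and 0.30. The genes of each of these 2 pairs share a compartment, as do those of the mitochondrial pair, which did not reach 0.2.

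The ER pair had an r of 0.44 and 0.53 within the TGFB3-led cluster, of 0.51 and 0.54 within the ARPP21-led cluster, and of 0.33 and 0.42 in thinned cells. With the counting variance subtracted it was 0.66 and 0.71. The cytosolic pair had 0.31 and 0.23 within the TGFB3-led cluster, 0.19 and 0.21 in thinned cells, and 0.32 and 0.33 with the counting variance subtracted. The mitochondrial pair, HSPD1 and HSPE1, had a lower r of 0.18 and 0.17. With the counting variance subtracted it was 0.49 and 0.48, above that of the cytosolic pair. The counts of HSPD1 and HSPE1 were low, with medians of 3 and 5 UMIs per cell in AF75.

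The other pairs of members were not all alike in the 2 follicles. HSPA5 had an r of -0.02 with HSPA8 in AF75 and of 0.10 in AF76. HSP90AA1 had an r of 0.07 with HSPD1 in AF75 and of 0.23 in AF76. HSPA8 and HSPD1, the 2 of 9 searched members with the heat shock element of 3 units, had an r of 0.16 and 0.14. This was close to the r of the mitochondrial pair only before the counting variance was subtracted. With it subtracted, HSPA8 and HSPD1 had 0.31 and 0.24, against 0.49 and 0.48 for the mitochondrial pair. HSPB3, the most variable member, had no r above 0.16 with another member in either follicle. HSPB1 had 0.14 and 0.30 with HSP90AA1.

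In AF76, 9 pairs reached 0.2 over all cells, against 2 in AF75. The median over the 28 pairs of abundant members was 0.14 in AF76 and 0.05 in AF75. Without the CEMIP-led cluster, 2 pairs reached 0.2 in AF76, and HSPB1 with HSP90AA1 stood at 0.09. Within the TGFB3-led cluster the median over the 28 pairs was 0.01 in both follicles. The log number of UMIs per cell had an r of up to 0.35 with a member in AF76 (HSP90AA1) and of up to 0.17 in AF75 (HSPE1). The summed immediate early genes had an r between -0.11 and 0.02 with every member.

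**Figure D5:**
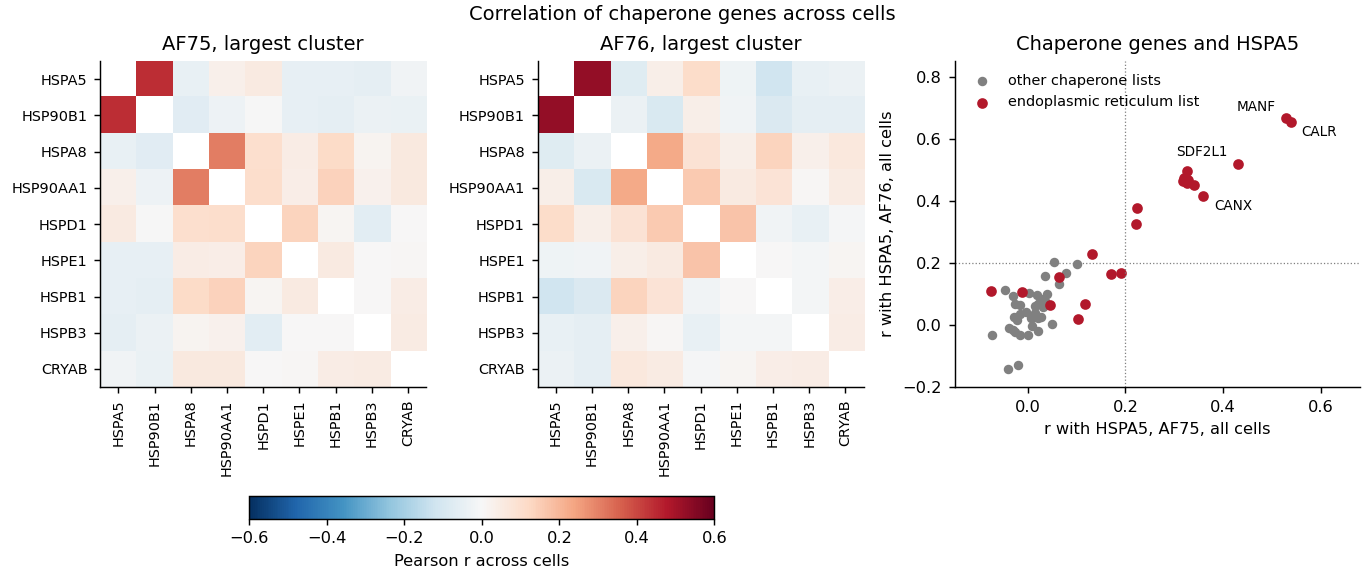
Pearson's r across cells between 9 members within the largest cluster of AF75 (left) and AF76 (middle; diagonal left white), and r of listed chaperone genes with HSPA5 over all cells of both follicles (right; dotted lines at 0.2). HSPA5 and HSP90B1 stand out at 0.44 and 0.53, and 12 of 21 ER genes, in red, lie above 0.2 in both follicles.

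Over all cells, the ER pair sat within a wider group of ER genes. The r with these genes was not taken within clusters or without the CEMIP-led cluster of AF76. Among 3389 other genes with at least 0.5 UMIs per cell in both follicles, the nearest to both HSPA5 and HSP90B1 were an unnamed gene, ENSSSCG00000034072, then CALR and MANF. For HSPA5 the r was 0.54 and 0.69 with ENSSSCG00000034072, 0.54 and 0.65 with CALR, and 0.53 and 0.67 with MANF. Of the 21 listed ER genes at that level, 12 had an r of 0.2 or more with HSPA5 in both follicles, where 0.854% of all genes compared did. They included SDF2L1 (0.43 and 0.52), the calcium-binding lectin chaperone CANX (0.36 and 0.42), the disulfide isomerases PDIA3, PDIA4 and PDIA6 and the HSP70 relative HYOU1. With HSP90B1 the count was also 12 of 21, where 0.559% of all genes did.

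No gene of the other chaperone lists reached 0.2 with HSPA5 in both follicles, among them 11 of the cytosolic HSP70 group, 11 of the HSP90 group and 11 of the chaperonin group. Of the genes with an ER stress element in the promoter window, 7 were abundant enough to compare with HSPA5, and 5 of them had an r of 0.2 or more in both follicles: HSP90B1, CALR, CANX, CRELD2 and PDIA6. XBP1, a transcription factor of the response, had 0.13 and 0.23, and SLC33A1 had 0.10 and 0.13. The element was not found in the windows of MANF, SDF2L1, PDIA4 and HYOU1, which also reached 0.2 with HSPA5 in both follicles. Their r was 0.53 and 0.67, 0.43 and 0.52, 0.34 and 0.45, and 0.33 and 0.47. Whether the element goes with a higher r was not tested. Of the genes with a heat shock element of 3 units, 13 could be compared with HSPA8, and none reached 0.2 in both follicles. HSP90AB1 had 0.24 and 0.09.

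The nearest genes to the other members were less close. These r were also over all cells, which in AF76 included the CEMIP-led cluster. INHA was at 2215 CPM in that cluster, against 24652 CPM in the TGFB3-led cluster of AF76. The part of such differences between clusters in these r was not tested. HSPB1 had an r of 0.27 and 0.53 with ANXA2 and of 0.20 and 0.35 with S100A10, which form a membrane-binding complex. For HSPB3 they were INHA (0.32 and 0.30), the inhibin alpha subunit, AREG (0.28 and 0.28), the EGF-like ligand amphiregulin, and HADH (0.30 and 0.27), an enzyme of fatty acid oxidation. HSPA8 was nearest to IL33 (0.21 and 0.26), ANXA2 and SRXN1, and HSP90AA1 to UAP1 (0.22 and 0.36), EIF1B and TFPI2. For HSPD1, HSPE1 and CRYAB no gene reached 0.2 in both follicles. No likeness is given for HSPB8, with 5 UMIs in all.

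Of the 100 other chaperone genes listed, 91 were found and 86 had enough UMIs. Between the follicles 0 of the 86 passed 1.5-fold, beside the 5.65% of all genes. Their log2 ratios ran from -0.33 (TRIB3) to 0.41 (HSPB6), with a median of 0.04 against 0.00 for all genes, and 53 of 86 were above 0. HSP90AB1 was at 1451 and 1594 CPM, HSPA9 (mitochondrial HSP70) at 206 and 191 CPM and CALR at 1067 and 1161 CPM. The inducible genes were low and alike, with HSPH1 at 123 and 131 CPM and DNAJB1 at 36.7 and 34.0 CPM. HSP70.2, of which the reference gives HSPA1A and HSPA1B, the main stress-induced HSP70 genes, as other names, was found by its identifier, ENSSSCG00000029160, at 25.7 and 27.9 CPM. It was at 41.2 CPM (35.5 to 47.6) in the CEMIP-led cluster and at 28.9 CPM in the TGFB3-led cluster of AF76. The gene has near-identical relatives that could share its reads, so that this level is uncertain. The transcription factor HSF1 was at 36.7 and 37.7 CPM, and HSF2 at 78.3 and 91.3 CPM.

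The ER pair was lower in the barcodes under 2000 genes than in the kept cells. In these barcodes, 4595 in AF75 and 7397 in AF76, HSPA5 was at 528 and 458 CPM and HSP90B1 at 545 and 298 CPM. The kept cells had 787 and 1060.3 CPM, and 811 and 798 CPM. HSPB1 was at 5786 and 6781 CPM in the same barcodes and HSPB3 at 801 and 1224 CPM, so that the small heat shock proteins were close to their level in the kept cells and the ER chaperones were not. HSPA8 lay between these, at 1142 and 1181 CPM against 1445 and 1390.2 CPM. These barcodes had a median of 1303 and 1180 UMIs.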

How the data were processed

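The authors deposited, per follicle, a matrix of UMI counts of genes by barcodes made with Cell Ranger 6.0.2 on Sscrofa11.1 (per the labels, and per the study's methods), not normalised. Reads had been collapsed to UMIs by the authors. The libraries held 125409747 UMIs in AF75 and 127414267 in AF76, and 56 barcode sequences were in both. From these counts, barcodes with 2000 to 5000 genes and under 7% mitochondrial UMIs were kept, and UMIs were summed per follicle and cluster and scaled to 1000000 UMIs per group (CPM). Levels have exact Poisson intervals, shares Clopper-Pearson intervals and ratios exact conditional intervals, at 95%, which cover counting error only. A ratio needed 200 UMIs in at least 1 of the groups and was called past 1.5-fold. With 1 library per follicle no test across samples could be run.

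Cells were clustered in R 4.3.3 with Seurat 5.3.0 by anchor integration of the 2 libraries (2000 variable genes without the listed genes, 40 components, resolution of 0.2). Pearson's r used the natural log of 1 plus UMIs per 10000. Thinning drew 5000 UMIs per cell. Scrublet in scanpy 1.11.5 called 0 and 1 doublets, and whether the caller worked here was not tested. None were removed, because cells were taken by number of genes and mitochondrial share only. An alternative left out the 6.9% of cells with the highest doublet scores. Barcodes with UMIs of at least 3 of 8 immune markers, and at least 10 in all, were taken as immune-marked. Other steps used Python 3.11.15, numpy 2.4.6, scipy 1.17.1 and pandas 2.3.3. The ratios, their intervals and the correlation were tested on simulated data, and the thinning on cells of AF75. The other steps were not tested in this way. The rule for named genes took the 10 members, the 3 genes nearest to each across cells, HSP90AB1, HSPA9, CALR, HSPA1A and HSPH1, markers, and the leading genes of clusters. HSP70.2, other chaperones, transcription factors and genes with a promoter match were named after their values were seen. The members and lists were chosen with earlier results of these data known.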

Additional observations from a re-analysis of the deposited data

How the results depend on the processing

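No paired analysis was possible because each follicle gave 1 library and there are no replicates. Of the counts of members or pairs under other filters, scalings and clusterings, 36 stayed within 1.5 times the value reported and 7 did not. With no minimum of UMIs, 1 other chaperone, HSPB7 (2 and 1 UMIs), was past 1.5-fold between the follicles, against 0. The 2 pairs with an r of 0.2 or more in both follicles became 1 (HSPA5 with HSP90B1) with 500 to 6000 genes per barcode, 1 in cells thinned to 5000 UMIs, 4 with the counting variance subtracted and 7 at an r of 0.1 or more. The 1 member past 1.5-fold in both follicles between the ARPP21-led and the TGFB3-led cluster, CRYAB, became 0 in thinned cells, where it no longer reached 200 UMIs, and 2 (HSPB3 and CRYAB) with chaperone genes allowed among the variable genes. Apart from HSPB8, levels moved by at most 1.15-fold. The log2 ratio of CRYAB between the follicles ran from -0.09 to 0.05, and that of HSPB1 between these clusters in AF76 from -0.30 to 0.07. Alternatives on the CEMIP-led cluster, and the pairs without it, were chosen after seeing the data and gave 7 or 8 members and 2 pairs. HSPB8 rests on 3 and 2 UMIs and CRYAB on 459 and 424.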
